A study of Mus musculus with 6 samples.

Results

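Globin and erythroid genes were followed in kidneys of mouse embryos with and without a mutation of Fat4, the gene of an atypical cadherin. The 9 genes, chosen by name, were 9 of 22667 in the deposited expression table: the alpha-like globin genes Hba-x, Hba-a1 and Hba-a2, the beta-like globin genes Hbb-y, Hbb-bh1, Hbb-b1 and Hbb-b2, the haem enzyme gene Alas2 and the transcription factor gene Klf1. All 9 held a value in every library. The mutant group was 3 Fat4-/- embryos and the control group 3 Fat4+/+ embryos, each giving 1 library from both of its kidneys. All 6 were untreated embryos at E13.5, recorded as strain C57BL6/6 (Backcrossed 6 times:N6) and taken from a single mother, so p-values refer to the spread among littermates. The labels say no more about the Fat4 allele. Most of the ureter had been removed, and the tissue held ureteric bud, condensing mesenchyme and stroma.

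Haemoglobin joins alpha-like and beta-like globin chains, each holding a haem. In the mouse embryo the first red cells form in the yolk sac, circulate as nucleated cells and make embryonic globins (Hba-x on the alpha side, Hbb-y and Hbb-bh1 on the beta side). Red cells formed later in the foetal liver make the adult globins (Hba-a1, Hba-a2, Hbb-b1 and Hbb-b2). Here the words embryonic and adult name the genes and do not assign their RNA to red cells of either origin. Alas2 carries out the first, rate-limiting step of haem synthesis in erythroid cells, and Klf1 is an erythroid transcription factor that binds CACC boxes in the adult beta-globin promoter and many other erythroid promoters. Blood cells are present in the vessels of embryonic organs, so their RNA is part of a whole-kidney library.

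Promoter stretches are shown for the most abundant embryonic beta-like gene (Hbb-y), adult beta-like gene (Hbb-b1) and adult alpha-like gene (Hba-a2). A link between these sequences and the levels that follow was not tested. Each is the stretch just before the RefSeq start on GRCm38.p6, 5′ to 3′ on the gene's strand. Capitals mark matches on either strand to the short motifs CACCC (core of the CACC box), GATAA (core of the GATA site), and to CCAAT and the TATA-like ATAAA and TATAA. The stretches lie at chr7:103853208-103853319 (minus strand), chr7:103827929-103828040 (minus strand, under the RefSeq name Hbb-bs) and chr11:32296380-32296491 (plus strand).
Hbb-y: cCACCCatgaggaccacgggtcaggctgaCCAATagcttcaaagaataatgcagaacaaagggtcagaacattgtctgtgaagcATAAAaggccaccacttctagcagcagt
Hbb-b1: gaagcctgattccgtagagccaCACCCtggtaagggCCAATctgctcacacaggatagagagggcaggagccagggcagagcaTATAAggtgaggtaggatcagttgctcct
Hba-a2: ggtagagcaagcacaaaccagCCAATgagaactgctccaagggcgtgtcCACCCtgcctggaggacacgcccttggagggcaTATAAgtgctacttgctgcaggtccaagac

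All 3 stretches held CACCC as well as CCAAT, and a TATA-like match in the last 30 bases. RefSeq promoters were matched for 8 of the 9 genes, and Hbb-bh1 had no entry. CACCC was found in 7 of the 8 windows, against 30.03% of 32851 promoter windows of the same length, and CCAAT in 6 of 8, against 20.41%. GATAA was found in 3 of 8 (Hba-x, Alas2 and Klf1), against 9.653%. ATAAA was found in 4 of 8 against 19.18% and TATAA in 5 of 8 against 11.11%; these 2 motifs overlap where TATAAA occurs, and ATAAA overlaps GATAA on the other strand of Alas2. Most of the 8 windows belong to related globin genes, and those of Hba-a1 and Hba-a2 were 97.6% identical over 250 bases. The counts are therefore not of separate observations. A match describes the letters in the window and not a bound site.

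The beta-like genes form a cluster on chromosome 7 (103812524 to 103853216 from Hbb-b2 to Hbb-y, GRCm38) and the alpha-like genes a cluster on chromosome 11 (32276400 to 32297298 from Hba-x to Hba-a2). Alas2 lies on chromosome X (150547375 to 150570638) and Klf1 on chromosome 8 (84901928 to 84905291). The identifiers that the deposited table calls Hbb-b1 and Hbb-b2 (ENSMUSG00000052305 and ENSMUSG00000073940) carry the names Hbb-bs and Hbb-bt in GENCODE M21. The coding sequences of Hba-a1 and Hba-a2 differed at 1 of 429 bases (99.8% identity), and those of Hbb-b1 and Hbb-b2 at 1 of 444 bases (99.8%). Hbb-y and Hbb-b1 shared 74.3% of coding bases, and Hbb-y and Hbb-bh1 76.3%. The sources used here do not say how reads shared by the near-identical copies were counted, so the split between Hba-a1 and Hba-a2 and between Hbb-b1 and Hbb-b2 is uncertain. The levels of these adult genes, and the sums, shares and ratios that include them, carry the same limit. The 250 bases before the start were 97.6% identical between Hba-a1 and Hba-a2 but 69.3% between Hbb-b1 and Hbb-b2.

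Levels are in cRPKM, which are corrected read numbers scaled to gene length and to the mapped reads of a library, so that genes of different length can be compared. A library summed to between 473695 and 503223 cRPKM, and the number of reads is unknown. Low values rose in steps that put the relative depth at 0.902 to 1.04 times that of wildtype embryo 1, in a search limited to factors near 1. In wildtype embryos 2 and 3 the best factor fitted 17 of 30 and 17 of 35 genes used. In mutant embryos 1, 2 and 3 it fitted 23 of 34, 22 of 32 and 17 of 28, so these depths are rough. Fat4 was at 15.69 to 16.83 cRPKM in the wildtype and 7.20 to 7.82 in mutant libraries, 45.7% of wildtype on average (log2 fold change -1.03, SE 0.0476, limma adjusted p = 0.000155). All 16 genes of a kidney list, among them Six2, Pax2, Wt1 and Ret, were above the minimum level for testing. The 4 Y-linked genes examined were near 0 in mutant embryos 2 and 3 and expressed in the other 4 embryos, so sex was uneven between the genotypes.

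Among the embryonic globins, Hbb-y was the highest. It was at 916.37, 1199.25 and 585.38 cRPKM in wildtype embryos 1, 2 and 3 and at 781.12, 1217.66 and 831.70 in mutant embryos 1, 2 and 3. The genotypes overlapped, with the number 2 embryo highest in each. Hba-x, the embryonic alpha-like gene, was at 117.59, 170.71 and 85.01 cRPKM in the wildtype and 106.32, 202.38 and 132.76 in mutant embryos. Hbb-bh1, which is most used in the earliest yolk sac cells, was far lower, at 15.81, 17.02 and 8.79 cRPKM in the wildtype and 11.45, 20.85 and 12.74 in mutant embryos. All 3 genes had their lowest value in wildtype embryo 3 and their highest in mutant embryo 2.

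Of the adult globins, Hba-a2 was at 912.88, 1121.76 and 632.72 cRPKM in wildtype embryos 1, 2 and 3 and at 729.17, 1164.24 and 847.14 in mutant embryos. Its near-copy Hba-a1 was lower and followed it, at 94.89, 120.68 and 60.56 in wildtype and 68.51, 115.46 and 88.61 in mutant embryos. Hbb-b1 was at 209.67, 276.18 and 174.68 cRPKM in the wildtype and 180.17, 288.08 and 229.21 in mutant embryos. These 3 genes also had embryo 2 of each genotype above the other 4 embryos. Hbb-b2 departed from this order, at 153.72, 124.13 and 83.13 cRPKM in the wildtype and 87.81, 140.30 and 107.66 in mutant embryos, with its highest value in wildtype embryo 1.

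Alas2 was far lower, with 7.33, 11.32 and 6.68 cRPKM in the wildtype and 7.55, 11.74 and 9.84 in mutant embryos. Embryo 2 of each genotype was the highest and wildtype embryo 3 the lowest, as for most globins, but wildtype embryo 1 lay below mutant embryos 1 and 3. Klf1 was at 0.47, 0.75 and 0.49 cRPKM in the wildtype and 0.49, 0.56 and 0.54 in mutant embryos, with a mean under the 1 cRPKM needed for testing. Wildtype embryo 2 was the highest for Klf1 and the other 5 lay between 0.47 and 0.56. Per kilobase, the mean levels thus ran from Hbb-y and Hba-a2, whose ranges overlap, to Hbb-b1, whose range overlaps that of Hba-x, and on to Hba-x, Hbb-b2 and Hba-a1, which overlap each other, then Hbb-bh1, Alas2 and Klf1. Hbb-bh1 and Alas2 also overlapped.

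**Figure D1:**
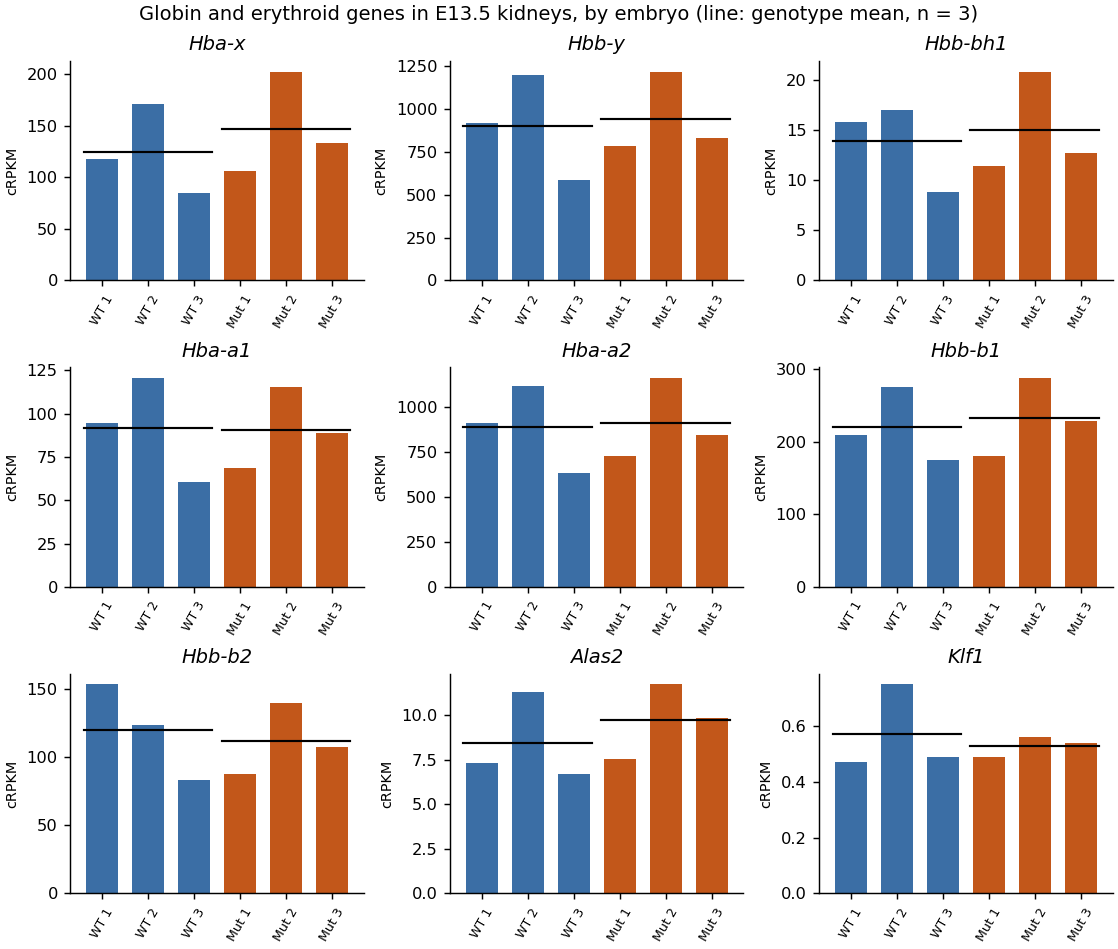
Bars give the cRPKM of each of the 9 genes (vertical axis, from 0, one scale per panel) in the 3 wildtype (WT, blue) and 3 mutant (Mut, orange) embryos, and black lines the genotype means (n = 3). Embryo 2 is the highest of its genotype in every panel but that of Hbb-b2 in wildtype, and the genotypes overlap in all 9 panels.

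None of the 8 members tested passed in mutant against wildtype kidneys (limma, adjusted p under 0.05), beside 1.43% of the 12315 tested genes (0.552% higher and 0.877% lower in mutants). None had an unadjusted p under 0.05 either, beside 13% of tested genes. The genotypes overlapped for all 8, whereas they did not overlap for 18.2% of tested genes. For 7 of the 8 the mutant mean was the higher on the log2 scale, beside 43.2% of tested genes, and the median log2 fold change of the 8 was 0.088 against -0.012 over all tested genes. These genes share their sample-to-sample pattern, so the 7 are not separate observations.

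Hbb-y averaged 900.3 ± 307.2 cRPKM in the wildtype and 943.5 ± 238.8 in mutant kidneys (SD, n = 3). Its log2 fold change was 0.10 (SE 0.256, limma adjusted p = 0.917), with a 95% interval from -0.49 to 0.69. Hba-a2 averaged 889.1 ± 245.4 and 913.5 ± 225 cRPKM (SD, n = 3), with a log2 fold change of 0.05 and an interval from -0.46 to 0.56. These intervals leave room for changes of any size they span. They are not adjusted over genes and are not a limit of detection, so a somewhat larger change could also have been missed. Hba-x had the largest estimate of the 8, 124.4 ± 43.3 against 147.2 ± 49.6 cRPKM (SD, n = 3) and a log2 fold change of 0.25 (SE 0.276, limma adjusted p = 0.777; interval -0.39 to 0.88). Hbb-b2 was the 1 member with a negative estimate, at -0.09 (interval -0.60 to 0.43). Its sign turned to 0.11 without wildtype embryo 1 and to 0.07 without mutant embryo 1.

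Of the remaining members, Hba-a1 was at 0.0047 (interval -0.57 to 0.58), Hbb-b1 at 0.08 (-0.36 to 0.52), Hbb-bh1 at 0.11 (-0.49 to 0.71) and Alas2 at 0.19 (-0.24 to 0.63) on the log2 fold change scale. Without wildtype embryo 2, Alas2 went to 0.40 (limma adjusted p = 0.315). All 8 estimates were smaller than the within-genotype SD of their gene, which ran from 0.329 to 0.484. The direction rested on single embryos: without wildtype embryo 3, the lowest, Hbb-y went to -0.18, Hba-a2 to -0.18, Hba-a1 to -0.27, Hbb-bh1 to -0.17 and Hbb-b1 to -0.08. Without mutant embryo 2, the highest, they went to -0.10, -0.14, -0.18, -0.14 and -0.09, and Hba-x to -0.0087. Embryos without Y-linked expression were all mutant. With the Y-linked score as a covariate the 7 positive estimates became negative, from -0.37 for Hba-a1 to -0.12 for Alas2. The mutant side of that fit rests mainly on mutant embryo 1, the only mutant embryo with Y-linked expression. Mutant embryo 1 was also the lowest mutant embryo for all 8 tested members. Sex and genotype cannot be told apart in mutant embryos 2 and 3.

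**Figure D2:**
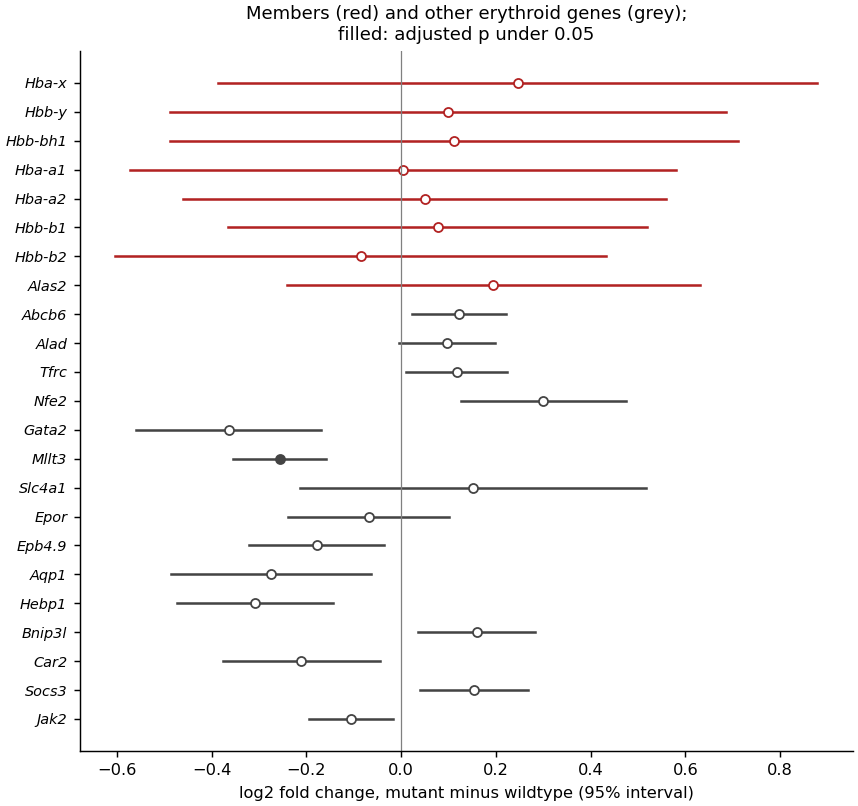
Points give the log2 fold change (mutant minus wildtype, horizontal axis, on the log2(cRPKM + 1) scale) and lines its 95% interval from limma, not adjusted over genes, for the 8 tested members (red) and 15 other erythroid genes (grey). The intervals of all 8 members include 0 and are wider than those of most of the other genes, among which Mllt3 alone passed after adjustment (filled point).

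The members stood out by how much they differed between embryos of the same genotype. The within-genotype SD of log2(cRPKM + 1) was 0.443 for Hbb-y, larger than in 99.5% of the tested genes, and 0.383 for Hba-a2, larger than in 99.3%. For Alas2, the least variable of the 8, it was 0.329, larger than in 99.1%. The members also ranked high among genes of their own level: of the 87 tested genes within 2-fold of the mean of Hbb-y, none had a larger SD, and of the 902 around Hba-x none did. For Hbb-bh1, 99.7% of the 5463 genes of similar level had a smaller SD. Of 7383 genes that averaged 10 cRPKM or more, 67 had a ratio of highest to lowest library (after adding 1 cRPKM) at least as large as the smallest ratio among the 7 globins, which was 1.65; the globins are among the 67. No test was made of this rank, since the genes had been picked with results known.

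**Figure D3:**
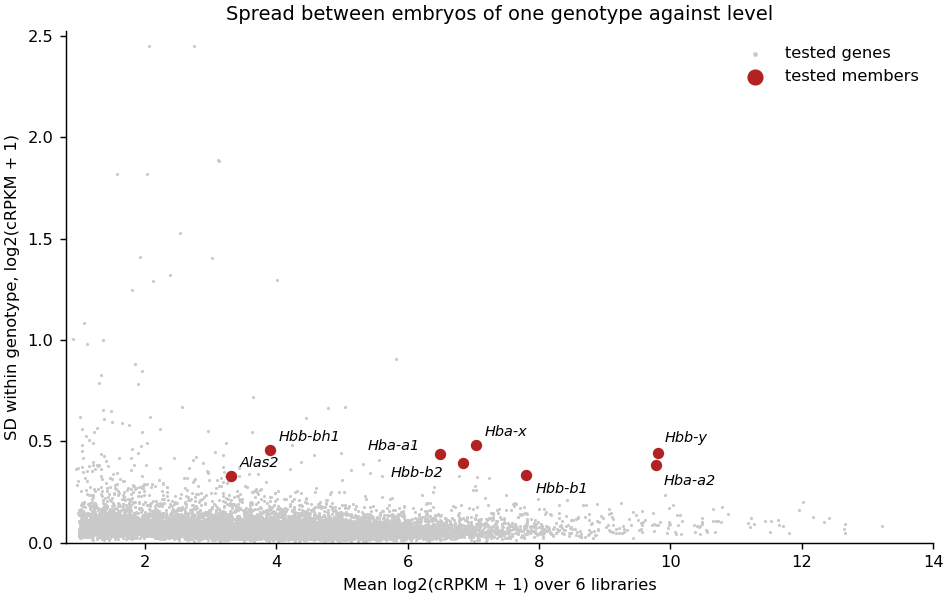
Each grey dot is 1 of 12315 tested genes, placed by its mean log2(cRPKM + 1) over 6 libraries (horizontal) and its SD between embryos of one genotype (vertical). The 8 tested members (red) lie at SDs of 0.329 to 0.484, above nearly all genes of their level.

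The embryos ranked alike for nearly all members. Wildtype embryo 3 was the lowest for all 8 tested members. Mutant embryo 2 was the highest for 6 of the 9 members and wildtype embryo 2 for 2 (Hba-a1 and Klf1). Mutant embryo 2 and wildtype embryo 2 both lay above the other 4 embryos for 7 of the 8 tested members, with Hbb-b2 the exception, as they did for 705 tested genes (5.72%). The 7 globins summed to 2421, 3030 and 1630 cRPKM in the wildtype and 1965, 3149 and 2250 in mutant embryos, a range of 1.93-fold. They took 0.344% to 0.626% of the summed cRPKM of a library. In these bulk samples, fewer red cells in the kidneys and less globin RNA per red cell cannot be told apart.

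**Figure D4:**
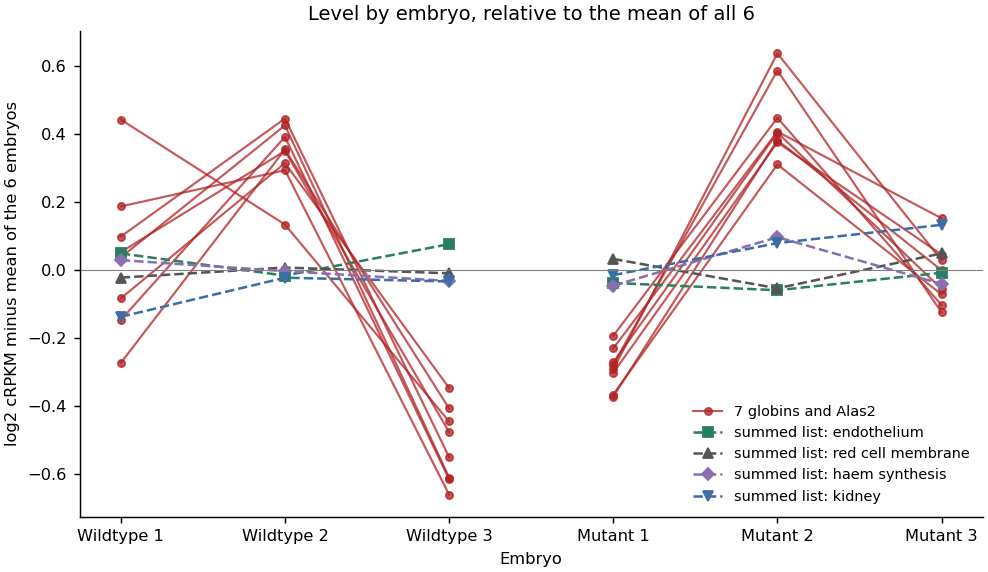
The vertical axis is log2 cRPKM minus the mean of all 6 embryos, the horizontal axis the embryo, with lines joining embryos of one genotype for legibility. The 7 globins and Alas2 (red) lie below 0 in wildtype embryo 3 and mutant embryo 1 and above 0 in embryo 2 of both genotypes. The summed lists for endothelium, red cell membrane, haem synthesis and kidney (dashed) stay close to 0. The red cell membrane sum (75.65 to 81.23 cRPKM) holds Epb4.1 at 39.71 to 43.19, and 11 of its 20 genes were too low to test. Slc4a1, on the same list, ranged from 2.11 to 4.03 cRPKM.

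The ratio of the highest to the lowest library, 1.93 for the globins, was 1.10 for the summed level of 16 endothelial genes, 1.21 for the kidney genes and 1.41 for 18 macrophage genes. The kidney ratio holds a genotype difference, with sums of 616.7 to 667.8 cRPKM in wildtype and 671.3 to 743.7 in mutant embryos. Of the 16 kidney genes 2 were called higher in mutants, beside 0.552% of tested genes. Of the 16 endothelial genes 1 was called lower, beside 0.877%. Lists near the lower end of detection varied more: the ratio was 1.53 for 10 megakaryocyte genes and 1.91 for 12 granulocyte and mast cell genes. It was 2.96 for 12 liver genes, of which 2 were tested and 1 was called lower in mutants. The liver sums were 3.26 to 6.64 cRPKM in wildtype and 2.24 to 3.34 in mutant embryos. The called gene was Hnf4a, at 1.90, 1.57 and 3.79 cRPKM in the wildtype and 0.39, 0.29 and 0.61 in mutant embryos. The liver ratio thus holds the difference of this 1 gene between the genotypes. The other tested gene, Apoa2, overlapped between them. Pecam1, a marker of vessel lining, was at 31.90, 30.57 and 29.88 cRPKM in the wildtype and 31.54, 28.48 and 30.34 in mutant embryos. The embryo with the least globin RNA, wildtype embryo 3, thus had a Pecam1 level within the range of the others, and its summed endothelial level was the highest of the 6 (291.7 cRPKM). The macrophage marker Csf1r ranged from 3.17 to 4.23 cRPKM, the platelet gene Pf4 from 2.10 to 3.72 and the leukocyte gene Ptprc from 0.60 to 0.99. The liver gene Alb was at 0.02 to 0.09 cRPKM in 5 embryos and at 0.30 in mutant embryo 3. The part of any of these in the globin levels was not tested.

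Dividing by the other globins removed most of the spread. For each globin, the within-genotype SD of log2 cRPKM was compared with that of its log2 ratio to the sum of the other 6. For Hba-a2 it went from 0.383 to 0.0421, for Hba-a1 from 0.445 to 0.0755, for Hbb-y from 0.4435 to 0.1004 and for Hba-x from 0.488 to 0.123. Alpha-like and beta-like globin RNA stayed in proportion: their ratio was 0.869, 0.874 and 0.913 in wildtype and 0.852, 0.889 and 0.904 in mutant embryos. Hbb-b2 kept the most of its spread, going from 0.399 to 0.239.

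The balance of embryonic and adult globins was compared next. The adult side of each share depends on how reads of the near-identical copies were counted, which is unknown. Hbb-y and Hbb-bh1 made up 71.95%, 75.2% and 69.7% of beta-like globin in wildtype and 74.7%, 74.3% and 71.5% in mutant embryos (72.3% ± 2.77 and 73.5% ± 1.76, SD, n = 3). The genotypes overlapped, with the lowest share in wildtype embryo 3. On the alpha side the embryonic gene was the minority, as Hba-x made up 10.45%, 12.1% and 10.9% in wildtype and 11.8%, 13.7% and 12.4% in mutant embryos (11.15% ± 0.839 and 12.6% ± 0.961, SD, n = 3). Mutant embryo 1 fell between wildtype embryos 2 and 3, so these values overlapped too. With Hba-a1 as the single adult gene the share of Hba-x was 55.3%, 58.6% and 58.4% in the wildtype and 60.8%, 63.7% and 59.97% in mutant embryos, and the genotypes did not overlap. With Hba-a2 as the single adult gene it was 11.4% to 13.2% and 12.7% to 14.8%, with overlap, and the split of reads between these copies is uncertain. Per 100 cRPKM of Hbb-y, Hba-x stood at 12.8 to 14.5 in wildtype and 13.6 to 16.6 in mutant embryos. No p is given for these sums over chosen genes, and 3 embryos against 3 could not reach an exact permutation p under 0.1.

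**Figure D5:**
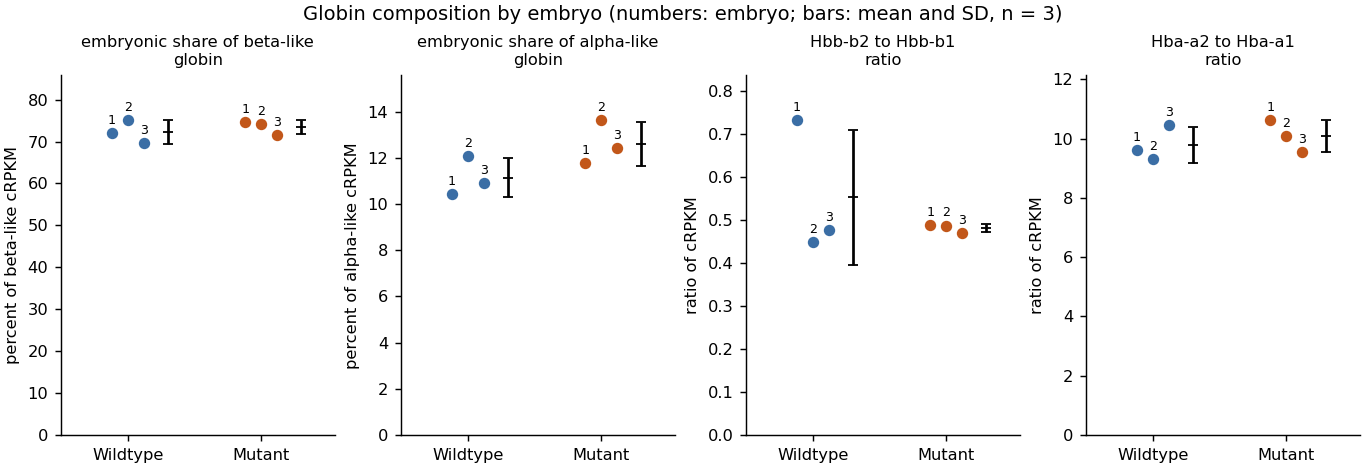
Points give the embryonic share of beta-like and of alpha-like globin (percent of cRPKM) and the ratios of the near-identical adult pairs, for each numbered embryo, with the mean and SD of each genotype (n = 3) in black; vertical axes start at 0. The genotypes overlap in all 4 panels, and wildtype embryo 1 stands alone at 0.733 in the ratio of Hbb-b2 to Hbb-b1.

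Within the adult beta-like pair, wildtype embryo 1 stood apart. The ratio of Hbb-b2 to Hbb-b1 was 0.733 there and 0.4495 to 0.487 in the other 5 embryos. The ratio of Hba-a2 to Hba-a1 showed no such embryo, at 9.62 in wildtype embryo 1 and 9.29 to 10.6 in the others. The same embryo had the lowest ratio of Alas2 to summed globin, at 3.03 per 1000 cRPKM against 3.73 to 4.37 in the other 5. It also stood apart for some of the neutrophil genes, singled out after their values were seen. S100a8, which encodes a calcium-binding protein of neutrophils, was at 1.15 cRPKM in wildtype embryo 1 and at 0 to 0.10 in the other 5. Its partner S100a9 was at 1.06 against 0 to 0.27, and Ngp, a granule gene of neutrophils, at 0.16 against 0 to 0.05. Other neutrophil genes went differently: Mpo, for myeloperoxidase, was at 0.03 cRPKM in wildtype embryo 1 and 0.36 in mutant embryo 1, Elane, for neutrophil elastase, at 0.02 and 0.17, and Prtn3, for another granule protease, at 1.41 and 1.96. Of the 12 granulocyte and mast cell genes, 4 were highest in wildtype embryo 1 and 3 in mutant embryo 1. The shares over all genes with a mean under 1 cRPKM were 19.67% and 9.92%, and 11 of the 12 were too low to test. The list summed to 4.21 cRPKM in wildtype embryo 1 and 2.20 to 2.92 in the others. The ratio of embryonic Hbb-y to adult Hbb-b1 in wildtype embryo 1 was 4.37, the highest of the 6 embryos (3.35 to 4.34 in the others). That ratio leaves out Hbb-b2, the copy that stood high in this embryo. With both adult copies counted, its embryonic share of beta-like globin was 71.95%, within the range of the others (69.7% to 75.2%). The part of such cells, or of adult blood from the mother, in the Hbb-b2 value was not tested, and the sharing of reads between Hbb-b1 and Hbb-b2 is unknown.

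Genes that mark red cell precursors were at low levels beside the globins. Gata1, the master erythroid transcription factor, was at 0.17 to 0.26 cRPKM in the wildtype and 0.21 to 0.29 in mutant embryos. Slc4a1, for the anion exchanger of the red cell membrane, was at 2.29, 4.03 and 2.11 cRPKM in the wildtype and 3.02, 3.16 and 3.22 in mutant embryos (log2 fold change 0.15, SE 0.160, limma adjusted p = 0.761). Without wildtype embryo 2, its highest library, Slc4a1 went to 0.37 (limma adjusted p = 0.0514). Its within-genotype SD of log2 cRPKM went only from 0.361 to 0.303 when divided by the summed globins, so it did not follow them closely. Wildtype embryo 2 was the highest for Slc4a1 and Klf1, whereas mutant embryo 2, with as much globin, was not. Of the 23 genes on the erythroid regulator, membrane and late erythroid lists too low to test, 7 were highest in wildtype embryo 2, 5 in mutant embryo 2 and 5 in wildtype embryo 3, beside 11.42%, 10.03% and 21.06% of all 6421 genes with a mean under 1 cRPKM. The remaining globins of the clusters were close to absent, with Hbq1a at 0.08 to 0.42, Hbq1b at 0.20 to 0.67 and Hbb-bh2 at 0 to 0.02 cRPKM.

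The summed level of the haem synthesis genes varied little between embryos. Of 14 tested genes for haem synthesis and its transport steps none passed, and the median log2 fold change was -5.87e-05. An unadjusted p under 0.05 (limma) was found for 1, beside 13% of tested genes. Alas1, which runs the same first step in most tissues, and the other enzyme genes are expressed by many cell types, and the summed list ranged from 395.7 to 436.8 cRPKM. Isca1 alone gave 133.06 to 155.33 cRPKM of this sum. Alas2 gave 6.68 to 11.74, so the sum says little about its own 1.76-fold range. Abcb6, a porphyrin transporter gene, had the smallest p, at 11.1 ± 0.284 cRPKM in the wildtype and 12.2 ± 0.415 in mutant kidneys (SD, n = 3; log2 fold change 0.12, limma adjusted p = 0.269). Alad, for the second enzyme of the pathway, was at 0.10 and Uros, for a later one, at -0.08 on the log2 fold change scale.

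Of 19 genes of iron and haem handling, 16 were tested and none passed, with a median log2 fold change of -0.010. Here too 1 had an unadjusted p under 0.05 (limma), beside 13% of tested genes. Tfrc, for the transferrin receptor that brings iron into cells, was at 38.67, 40.64 and 39.55 cRPKM in the wildtype and 45.56, 42.53 and 41.21 in mutant embryos. The genotypes did not overlap for Tfrc, yet it did not pass (log2 fold change 0.12, limma adjusted p = 0.330). Its highest value, in mutant embryo 1, fell in an embryo with little globin RNA. Hmox2, a haem-degrading enzyme gene, was at -0.08, Slc25a37, for the mitochondrial iron importer of erythroid cells, at 0.06, and Trf, for transferrin, at 0.12 on the log2 fold change scale.

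Among 15 tested of 19 erythroid regulators 1 fell and none rose, beside 0.877% and 0.552% of tested genes, and the median log2 fold change was -0.045. The gene that fell was Mllt3, a cofactor of transcription elongation that is also active outside blood, which averaged 10.7 ± 0.312 cRPKM in wildtype kidneys and 8.78 ± 0.223 in mutants (SD, n = 3; log2 fold change -0.26, SE 0.0429, limma adjusted p = 0.0316). Its call was lost without each of the 6 embryos in turn (limma adjusted p 0.0561 to 0.123), and its values did not follow the globins. Gata2, a factor of blood progenitors, endothelium and urogenital mesenchyme, was at 9.77, 9.12 and 11.45 cRPKM in the wildtype and 6.99, 8.34 and 7.53 in mutant embryos. Its genotypes did not overlap, with a log2 fold change of -0.36 (limma adjusted p = 0.0891). Nfe2, which activates globin and platelet genes, was at 1.51, 1.79 and 1.60 cRPKM in the wildtype and 2.02, 2.53 and 2.19 in mutant embryos, again without overlap (log2 fold change 0.30, limma adjusted p = 0.114). Sox6, a repressor of embryonic globins, was at -0.12.

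Of 20 red cell membrane genes 9 were tested and none passed, with a median of -0.049. Aqp1, a water channel gene of red cells and also of kidney tubules, was at -0.28 (limma adjusted p = 0.247), and passed without wildtype embryo 2 (log2 fold change -0.39, limma adjusted p = 0.0416). Epb4.9, for the cytoskeletal protein dematin, was at -0.18, Gypc, for glycophorin C, at 0.12 and Tmod1, for an actin-capping protein, at -0.10. Of 19 late erythroid and red cell enzyme genes 11 were tested and none passed, with a median of -0.019. Hebp1, for a haem-binding protein, was at 8.75 ± 0.620 and 6.88 ± 0.638 cRPKM in the wildtype and mutant kidneys (SD, n = 3; log2 fold change -0.31, limma adjusted p = 0.0873). Bnip3l, which clears mitochondria from maturing red cells, was at 0.16, Car2, a carbonic anhydrase gene, at -0.21 and Mgst3, a glutathione transferase gene, at -0.09.

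Epo and its receptor were low in these kidneys. Epo, which the adult kidney makes, was at 0.10 to 0.19 cRPKM over the 6 embryos, and Epor at 2.67 ± 0.246 in wildtype and 2.50 ± 0.238 in mutant kidneys (SD, n = 3; log2 fold change -0.07, limma adjusted p = 0.768). Of 12 tested genes of Epo and Kit signalling none passed, with a median of -0.0018. In each direction 2 had an unadjusted p under 0.05 (limma), beside 13% of tested genes over both directions. Socs3, a cytokine feedback inhibitor, was at 0.15 and Pim1, a kinase gene, at 0.15. Jak2, the kinase bound to the Epo receptor, was at -0.11 and Socs2, another feedback inhibitor, at -0.20 on the log2 fold change scale (limma adjusted p 0.231 to 0.338 for the 4).

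The embryo profile of the members was also set beside all other tested genes. The mean centred log2 profile of the 8 tested members was 0.04, 0.33 and -0.50 in wildtype and -0.28, 0.43 and -0.02 in mutant embryos, with a root mean square of 0.323. Of the tested genes in none of the lists, the nearest was Lsm7, for a subunit of an RNA-binding complex, at a root mean square difference of 0.0970 over the 6 libraries and with 53.60, 59.05 and 36.89 cRPKM in the wildtype and 38.71, 59.05 and 44.94 in mutant embryos. The next were Hsd3b6, a steroid dehydrogenase gene, at 0.116, Gm11106 at 0.144, Zbtb9 at 0.171, CT485619.1 at 0.173 and the histone gene Hist1h4b at 0.173.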

How the data were processed

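Total RNA of both kidneys per embryo was sequenced in 6 libraries. The authors deposited 1 table of RPKM values in a corrected form, cRPKM; per the file headers the reads had been trimmed, and the sources used here do not describe the correction. Bowtie and mm9 are named, without versions, per the submitters' processing notes. Columns were assigned by the header text quoted in each sample's description. Of 22667 genes, 21553 held values. Genes averaging at least 1 cRPKM (12315) entered limma 3.58.1 (R 4.3.3) on the log2(cRPKM + 1) scale (eBayes with trend, genotype only, 2-sided, Benjamini-Hochberg over all tested genes, threshold 0.05), so a log2 fold change understates the change of low genes. The test was tried on simulated data. Ratios, SDs and shares were computed from cRPKM in Python 3.11.15. Coding sequences are the longest open reading frames of GENCODE M21 transcripts, aligned with Biopython 1.88; positions are GRCm38, not the mm9 of the values.

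The named genes were the 9 members, Fat4, every called gene and the 4 of smallest p on each of 7 erythroid lists, markers of erythroid and other cell types, and the 6 genes of nearest profile; Epo, Alas1, the low globins and the neutrophil, platelet and macrophage genes S100a8, S100a9, Ngp, Mpo, Elane, Prtn3, Ppbp, Gp9 and C1qb were named after their values were seen. Epb4.1, Isca1, Hnf4a, Apoa2 and Lyz2 were also named after their values were seen. The members and lists were chosen with earlier results of these data known. Alternatives covered the pseudocount, filter, scaling, embryo number, Y-linked score, library weights and leaving out each embryo. Ahsp was not analysed here. A result of 1 marker gene is not reported here.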

Additional observations from a re-analysis of the deposited data

How the results depend on the processing

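No member was called under any of 14 alternatives to the limma fit (lowest adjusted p 0.315, for Alas2), and 84 member fold changes kept their sign while 28 did not. The mutant side of the fit with the Y-linked score rests mainly on mutant embryo 1, which limits every value from that fit. With the Y-linked score as covariate the log2 fold changes were -0.37 for Hba-a1, -0.25 for Hba-a2, -0.18 for Hba-x, -0.27 for Hbb-b1, -0.15 for Hbb-y, -0.21 for Hbb-bh1 and -0.12 for Alas2. With library weights they were -0.30, -0.22, -0.11, -0.17, -0.21, -0.16 and -0.0677 in the same order, and -0.0541 for Slc4a1; Hba-a1 was at -0.0002 after quantile normalisation. Leaving out 1 embryo gave -0.27 to 0.23 for Hba-a1, -0.18 to 0.24 for Hba-a2, -0.0087 to 0.50 for Hba-x, -0.0894 to 0.25 for Hbb-b1, -0.33 to 0.11 for Hbb-b2, -0.18 to 0.34 for Hbb-y, -0.17 to 0.27 for Hbb-bh1 and 0.06 to 0.40 for Alas2, whose unadjusted p was under 0.05 in 1 alternative. The cause of these sign changes was not tested. Calls over all genes numbered 176, and 32 with no filter, 102 with an equal sum over genes other than globins, 2 with the Y-linked score and 24 to 132 without 1 embryo (71 without wildtype embryo 1, and 34, 24 and 30 without mutant embryos 1, 2 and 3). The erythroid regulator call (Mllt3) fell to 0 with no filter (adjusted p = 0.0801), with the equal sum (0.0819), with the Y-linked score (0.535) and without any 1 embryo (0 to 0 calls), and red cell membrane calls ranged from 0 to 1. The embryonic share of alpha-like globin differed by 1.46 percentage points, and by 4.05 with 1 adult gene of each kind (Hba-a1 for the alpha side). With embryo number as a replicate block 273 genes were called, still none of them a member; same-numbered embryos' deviations correlated at 0.099, 0.205 and 0.277 across genes, and not every embryo correlated best with its own number, so the numbers were not taken as pairs. The unknown read number and 3 embryos a genotype limit the precision.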

Other observations

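Mutant embryo 2, high for the globins, was also high for platelet genes. Of 10 megakaryocyte and platelet genes, 8 were highest in mutant embryo 2, beside 10.03% of all genes with a mean under 1 cRPKM and 23.24% of tested genes. Their summed level was 10.15 cRPKM there and 6.64 to 7.98 in the other 5 embryos. Ppbp, a platelet chemokine gene, was at 0.95, 0.80 and 0.70 cRPKM in the wildtype and 0.94, 1.43 and 1.01 in mutant embryos, and Gp9, for a platelet surface glycoprotein, at 0.25, 0.46 and 0.34 and at 0.48, 0.64 and 0.33. Wildtype embryo 2, which had nearly as much globin RNA as mutant embryo 2, was highest for none of the 10.

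Of 18 macrophage genes, 11 were highest in wildtype embryo 1, beside 19.67% of all genes with a mean under 1 cRPKM and 23.96% of tested genes. The complement gene C1qb was at 7.49 cRPKM there and at 4.62 to 6.31 in the other 5 embryos. Other genes of the list peaked elsewhere: mutant embryo 1 was highest for 3, wildtype embryo 2 for 2 and mutant embryo 2 for 1. Lyz2 was at 9.92 cRPKM in wildtype embryo 1 and 10.94 in mutant embryo 1. Wildtype embryo 1 was also the embryo with the highest Hbb-b2 and the highest S100a8 and S100a9. A shared source of these values was not tested.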
